A study of Macaca mulatta with 20 samples.

Results

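A set of 123 genes was expressed above cerebral cortex, pancreas and thymus in testis and in immortalized fibroblasts of rhesus macaques, out of 11956 genes measured on both array types used. For each gene and array type, a gap was computed as the lower of the testis and fibroblast means minus the highest of the cerebral cortex, pancreas and thymus means. A gene was a member where this gap reached at least 1 on the log2 scale, a doubling of the signal, for both array types. A gap of at least 1 was found for 232 genes (1.94%) with rhesus arrays and for 185 genes (1.55%) with human arrays, and the 123 members (1.03%) made up 53% of the rhesus genes and 66.5% of the human genes. These means chose the members, so the gaps are given as a description and were not tested.

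The RNA came from 5 rhesus macaque sources, which were testis, immortalized fibroblasts, cerebral cortex, pancreas and thymus. No genotype, treatment or age of the animals is given in the sources used here, and nothing states how the fibroblasts were immortalized. Each source was read on 2 Rhesus Macaque Genome Arrays, whose probes were designed from rhesus transcripts, and on 2 Human Genome U133 Plus 2.0 arrays, whose probes were designed from human transcripts. The 20 arrays are technical replicates of 5 RNA sources, so p-values measure the spread between arrays and do not compare animals. All levels are deposited log2 values of a probe set, a group of short probes for 1 transcript, and the brightest probe set stood for each gene. In RNA from whole tissue, fewer cells of a type and less RNA per cell cannot be told apart.

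Testis and cultured fibroblasts both hold cells of mesenchymal origin. In the testis, flat contractile cells called peritubular myoid cells wrap the seminiferous tubules, and blood vessels carry smooth muscle. Connective tissue cells lie between the tubules. Fibroblasts secrete collagens and other matrix proteins, and in culture they often build actin stress fibres that pull on the matrix through focal adhesions. Cortex, pancreas and thymus are made mostly of neurons and glia, of secretory cells and of lymphoid cells.

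The labels of the sources were checked against marker genes. On both array types, all 4 Sertoli cell markers were highest in testis and 8 of 9 fibroblast markers in the fibroblasts. Of 6 male germ cell markers, 4 were highest in testis and 2 in pancreas on both array types. Their mean level in testis was 5.16 (rhesus) and 4.37 (human). Of 3 Leydig cell markers, 3 (rhesus) and 2 (human) were highest in testis. All 4 neuronal, 5 exocrine pancreas and 5 thymocyte markers were highest in cortex, pancreas and thymus on both array types. Of 6 peritubular myoid and smooth muscle markers, 2 were highest in testis and 4 in fibroblasts. Control probe sets for transcripts that were not added marked the floor, with source means of 2.157 to 3.067 (rhesus) and 2.326 to 3.004 (human). In testis, 1 (rhesus) and 3 (human) of the 6 germ cell markers lay at or below the upper end of this floor. The pancreas arrays stood apart, since spiked controls read 1.165 (rhesus) and 1.13 (human) higher there, on the log2 scale, than the other sources averaged. On the rhesus arrays the actin control transcript also had a 3' minus 5' level of 4.579 in pancreas, against 2.066 to 2.658 elsewhere, a difference that grows when RNA is broken. On the human arrays this actin value was 2.403 in pancreas, within the 2.027 to 2.473 of the other sources. For the GAPDH control it was highest in pancreas on both array types, at 2.769 (rhesus) and 1.306 (human).

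The gaps of the members had a median of 1.795 (rhesus) and 1.649 (human), beside medians of -0.8627 and -0.4661 over all 11956 genes. The widest gap was 4.698 (rhesus) and 4.575 (human). Both gaps were at least 2 in 31 members and at least 3 in 8, while 29 members had both gaps below 1.5. In all 123 members the 4 testis and fibroblast arrays lay above the 6 other arrays on both array types. This holds for 6.69% (rhesus) and 4.87% (human) of all genes, and the rule itself brings it about. The smallest distance between single arrays was 0.51 (rhesus) and 0.43 (human). On the rhesus arrays the median level of the members was 8.79 in testis and 9.87 in fibroblasts, against 5.44 in cortex, 6.22 in pancreas and 5.41 in thymus. It was 7.51 in testis and 8.91 in fibroblasts on the human arrays, against 4.55 in cortex, 4.97 in pancreas and 4.36 in thymus. In 6 members (rhesus) and 11 members (human), the highest of the other sources lay at or below the floor, so there the gap is not an exact fold.

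**Figure D1:**
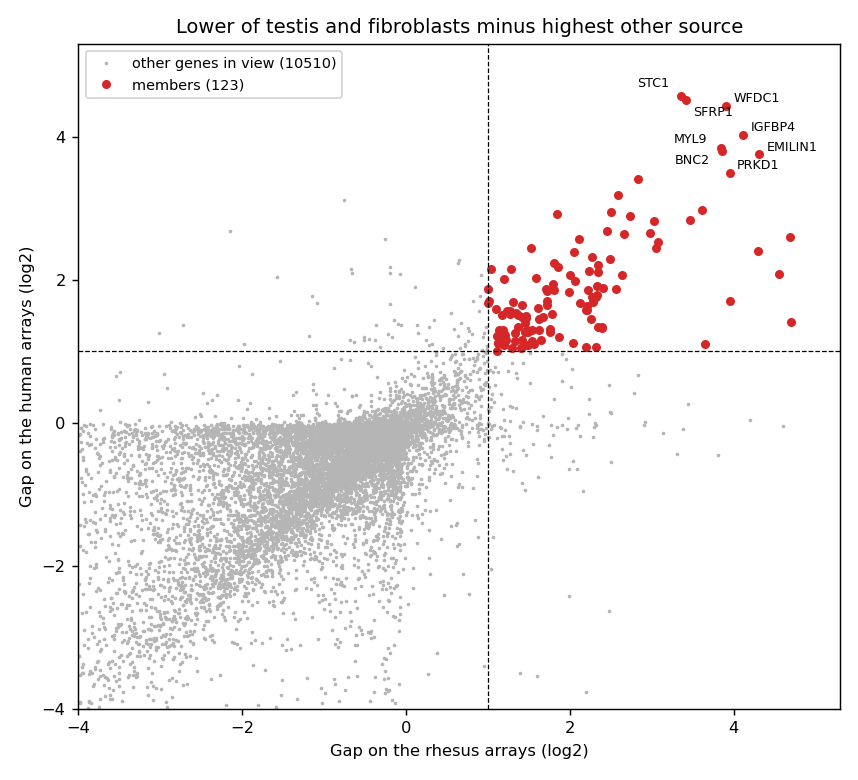
Rhesus array gap (x axis, log2) against human array gap (y axis, log2) for each gene, with the 123 members in red, the other genes in grey and dashed lines at a gap of 1. The 8 labelled genes are the members with both gaps of at least 3, and IGFBP4 had the widest smaller gap at 4.03.

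The genes with the widest gaps encode secreted regulators, matrix proteins and signalling proteins. IGFBP4, which binds insulin-like growth factors, read 10.91 and 10.86 on the rhesus testis arrays and 13.68 and 13.79 on the fibroblast arrays, against 4.06 and 4.14 in cortex, 6.55 and 7.0 in pancreas and 5.55 and 5.90 in thymus. On the human arrays it read 9.55 and 9.84 in testis and 12.59 and 12.59 in fibroblasts, with 3.36 to 5.71 elsewhere. Its gaps were thus 4.11 and 4.03, and the fibroblast arrays were the highest of all on both array types. WFDC1, a secreted protein with a WAP domain, read 9.73 and 9.75 in testis and 9.50 and 9.50 in fibroblasts on the rhesus arrays, against 5.43 and 5.67 in cortex, 5.50 and 5.69 in pancreas and 2.85 and 2.75 in thymus. Its gaps were 3.91 (rhesus) and 4.44 (human). On the human arrays the other sources of WFDC1 read 2.23 to 2.63, at the floor, so its human gap is not an exact fold. For this gene testis and fibroblasts were close, unlike IGFBP4.

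Smooth muscle and matrix genes followed. MYL9, the regulatory light chain of smooth muscle myosin, read 10.89 and 10.86 in testis and 11.49 and 11.68 in fibroblasts on the rhesus arrays, and the other 6 arrays lay between 5.42 and 7.29. The human MYL9 probe set read 6.80 and 7.05 in testis and 8.58 and 8.69 in fibroblasts, with 2.86 to 3.31 elsewhere. The gaps agreed, at 3.84 on both array types. EMILIN1, a glycoprotein of elastic fibres, read 6.50 and 6.71 in testis and 9.08 and 9.08 in fibroblasts on the rhesus arrays, while the 6 other arrays read 1.93 to 2.35, at the floor. The gap of 4.31 is therefore not an exact fold. COL16A1, a chain of collagen type XVI, had gaps of 3.61 and 2.98, and COL6A2, a chain of the microfibril collagen type VI, of 2.73 and 2.89. LTBP1 stores latent TGF-beta in the matrix and had gaps of 3.46 and 2.84.

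Signalling genes made up most of the other leading members. SFRP1, a secreted inhibitor of Wnt signalling, had gaps of 3.42 and 4.51, and STC1, a secreted glycoprotein hormone, of 3.35 and 4.58. On the human arrays the other sources of SFRP1 read 2.67 to 3.00, at the floor, so its human gap is not an exact fold. STC1 read 8.49 and 8.51 in testis and 9.77 and 9.75 in fibroblasts on the rhesus arrays, against 2.93 and 2.27 in cortex, 5.43 and 4.87 in pancreas and 2.39 and 2.37 in thymus. INHBA encodes the subunit of activin A and had gaps of 2.82 and 3.41. AXL, a receptor tyrosine kinase, had gaps of 3.03 and 2.82. PRKD1, a serine and threonine kinase, had gaps of 3.95 and 3.5, and BNC2, a zinc finger protein, of 3.85 and 3.80. KIRREL1, an adhesion protein of the immunoglobulin superfamily, and DAB2, an adaptor of endocytosis, closed the 15 with smaller gaps of 2.65 and 2.64.

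**Figure D2:**
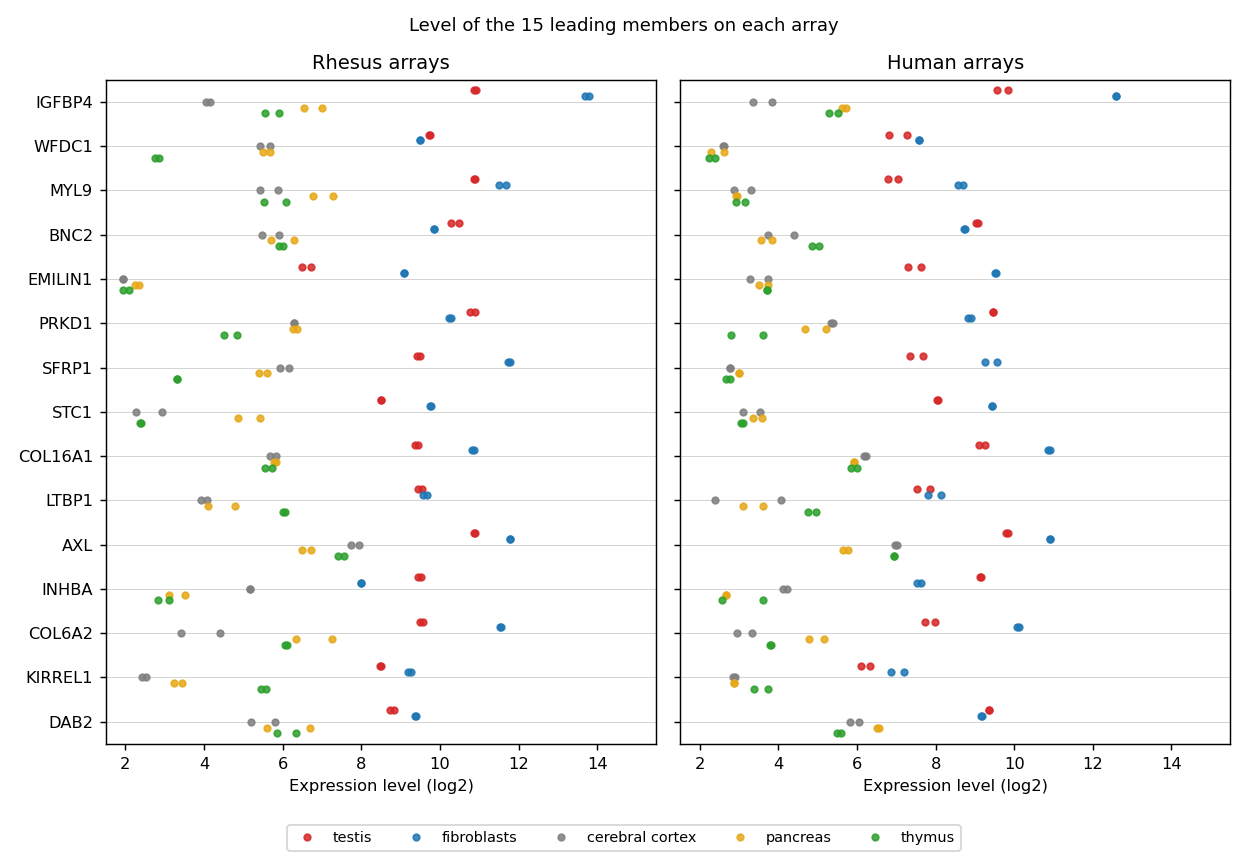
Level of the 15 leading members on every array, with the log2 expression level on the x axis and the rhesus arrays left of the human arrays. Each point is an array, and for every gene the red testis points and blue fibroblast points lie right of the grey cortex, yellow pancreas and green thymus points.

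Smooth muscle contractile genes were split. Of 12 listed genes measured on both array types, 4 were members, which were MYL9, CALD1, CNN1 and TPM2, and the median gap of the list was 0.27 (rhesus) and 0.39 (human). CALD1, the actin-binding caldesmon, read 10.19 and 10.23 in testis and 12.07 and 12.10 in fibroblasts on the rhesus arrays, against 7.32 and 7.36 in cortex, 8.62 and 8.58 in pancreas and 6.59 and 6.67 in thymus. CNN1, the smooth muscle calponin, was dimmer, with 4.80 and 4.51 in testis and 6.09 and 5.87 in fibroblasts on the rhesus arrays and 2.98 to 3.27 elsewhere. On the human arrays CNN1 read 3.77 and 4.21 in testis and 5.08 and 3.97 in fibroblasts, so the fibroblast arrays were apart. The other sources read 2.69 to 2.74 there, at the floor. TPM2, the beta chain of tropomyosin, passed narrowly with gaps of 1.12 on both array types, and its highest other source was thymus, at 8.10 and 8.08 on the rhesus arrays. Other rhesus probe sets of TPM2 went against this, since 1 read 3.00 in testis and 11.16 in fibroblasts against 10.64 in cortex, and another 3.66 in testis and 11.80 in fibroblasts against 10.96 in cortex. With the probe sets averaged, the rhesus gap of TPM2 was -1.72 and it was not kept.

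The other 8 contractile genes did not pass, and for several only 1 of the sources was high. MYH11, the heavy chain of smooth muscle myosin, read 12.03 and 12.07 in testis but 3.99 and 4.42 in fibroblasts on the rhesus arrays, against 4.54 and 4.34 in cortex, 6.80 and 6.35 in pancreas and 4.67 and 4.67 in thymus. The human MYH11 probe set read 10.47 and 11.14 in testis and 4.86 and 4.91 in fibroblasts, with 4.85 to 5.41 elsewhere. Fibroblasts were thus no higher than the other sources. TPM1, the alpha chain of tropomyosin, went the other way, with 9.01 and 9.26 in testis and 12.66 and 12.50 in fibroblasts on the rhesus arrays, against 10.07 and 10.15 in cortex and 10.74 and 10.74 in pancreas. TAGLN, the actin-binding transgelin, read 7.47 and 7.22 in testis and 13.17 and 13.19 in fibroblasts on the rhesus arrays and missed the rule there with a gap of 0.64, while its human gap was 1.21. SYNPO2, an actin-binding protein of muscle, read 8.94 and 9.08 in testis and 6.16 and 6.14 in fibroblasts on the rhesus arrays but 4.68 and 5.02 in testis and 7.11 and 7.35 in fibroblasts on the human arrays, so the array types put these sources in opposite order. The means of 6 peritubular myoid and smooth muscle markers, 3 of them members, were 8.34 in testis and 8.38 in fibroblasts on the rhesus arrays, against 4.40 in cortex, 5.49 in pancreas and 4.95 in thymus. They were 7.03 in testis and 7.33 in fibroblasts on the human arrays, against 3.64 in cortex, 4.03 in pancreas and 4.21 in thymus. Of 4 pericyte markers measured, none was a member.

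**Figure D3:**
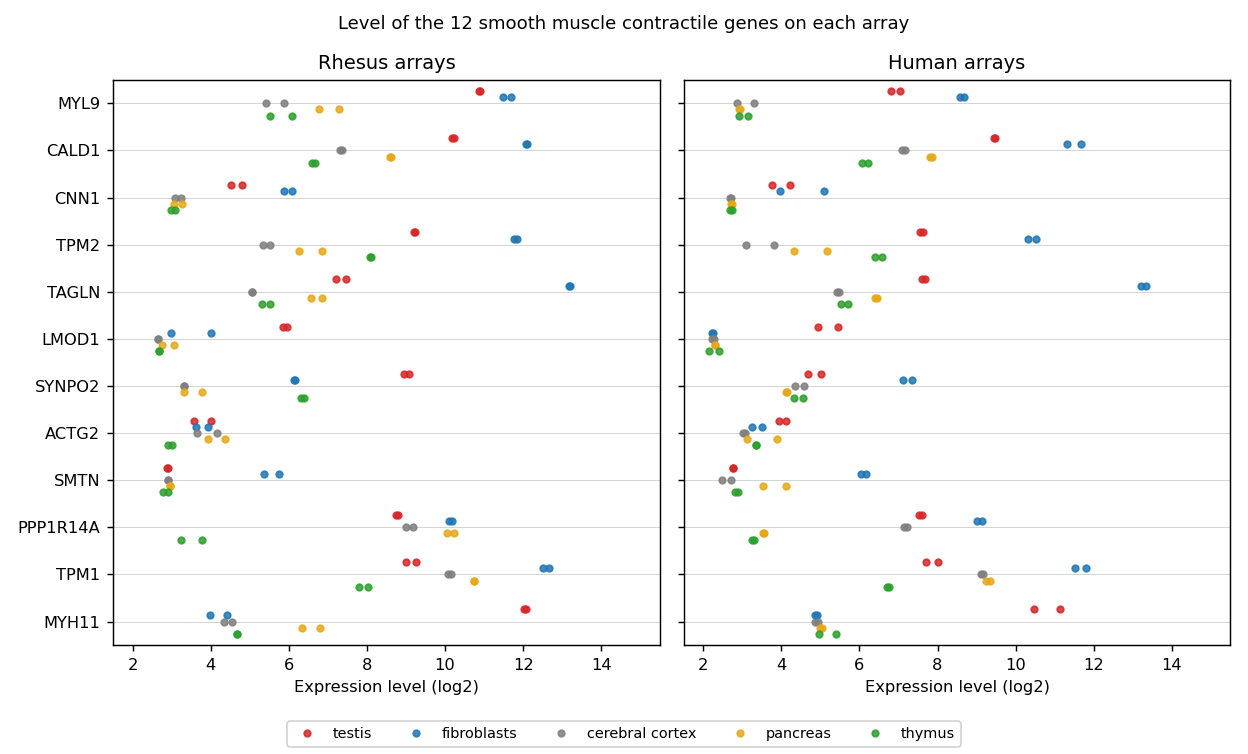
Level of the 12 smooth muscle contractile genes on every array (x axis, log2 expression level), rhesus arrays left of human arrays, ordered by the smaller gap. Testis and fibroblast points lie together at the right for MYL9, only the testis points (red) do for MYH11, and only the fibroblast points (blue) do for TPM1.

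Genes that link the cytoskeleton to the matrix held smaller shares of members than the contractile list (33.33%), beside 1.03% of all genes. Of 14 actin filament and stress fibre genes 1 was a member (7.143%), PALLD (palladin, a scaffold of stress fibres), with gaps of 1.37 and 1.5. Of 19 focal adhesion and integrin genes 3 were members (15.79%), and the list's median gap was 0.27 and -0.04. ITGB5, an integrin beta chain, had gaps of 1.79 and 1.95, ZYX (zyxin, a focal adhesion protein) of 1.99 and 1.83, and TGFB1I1, an adaptor of focal adhesions, of 2.27 and 1.76. Of 3 caveola genes none was a member.

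Collagen genes and the enzymes that process collagen held a larger share. Of 10 fibrillar and microfibril collagen genes 5 were members, with median list gaps of 1.29 and 1.26. COL1A2, a chain of type I collagen, read 13.53 and 13.62 in testis and 14.87 and 14.97 in fibroblasts on the rhesus arrays, against 5.68 and 5.8 in cortex, 12.06 and 12.14 in pancreas and 9.85 and 9.78 in thymus. Pancreas was thus nearest for COL1A2, with a gap of 1.47, and cortex farthest. COL6A1 is, like COL6A2, a chain of type VI collagen, the pair are next to each other in the RefSeq order of rhesus genes, and COL6A1 had gaps of 2.21 and 1.85. COL12A1, a collagen that lies on the surface of fibrils, had gaps of 1.10 and 1.22. Of 14 collagen processing genes 4 were members. SERPINH1, the collagen chaperone of the endoplasmic reticulum, had gaps of 2.58 and 3.19, LOXL2, which crosslinks collagen, of 2.33 and 1.92, and P4HA2, a prolyl hydroxylase subunit, of 2.63 and 2.06. With the probe sets averaged, LOXL2 had gaps of 0.35 and 0.36 and P4HA2 a human gap of 0.76, and neither was kept. FKBP10, a prolyl isomerase that acts on collagen, had a gap of 3.65 on the rhesus but 1.11 on the human arrays.

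Of 21 matrix glycoprotein and proteoglycan genes 5 were members, although the list's median gap was -0.45 (rhesus) and -0.26 (human). DCN encodes the collagen-binding proteoglycan decorin and read 13.71 and 13.59 in testis and 14.80 and 14.91 in fibroblasts on the rhesus arrays, against 7.82 and 7.96 in cortex, 11.19 and 11.15 in pancreas and 10.15 and 10.17 in thymus. FBN2, a fibrillin of microfibrils, had gaps of 2.33 and 1.79, THBS2, a thrombospondin, of 1.53 and 2.45, and the follistatin-related glycoprotein FSTL1 of 1.47 on both. Of the matrix genes that missed the rule because 1 of the sources was low, those described here were highest in fibroblasts. TNC, the glycoprotein tenascin C, read 3.06 and 3.07 in testis and 12.07 and 11.83 in fibroblasts on the rhesus arrays, so testis was near the floor. FN1 (fibronectin) read 8.46 and 8.41 in testis and 12.76 and 12.68 in fibroblasts on these arrays, against 9.90 and 9.88 in thymus. THBS1 and TGFBI, both secreted matrix proteins, had negative gaps on both array types, and their fibroblast arrays were also the highest. Over the contractile, collagen and both matrix lists, 20 of 38 genes that were not members were at least 1 above cortex, pancreas and thymus on both array types in 1 of the sources. The share of all genes with this pattern was not counted, so whether 20 of 38 is unusual cannot be told.

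Basement membrane, protease and growth factor genes were represented as well. LAMB2, a laminin beta chain, was the member among 10 basement membrane genes and read 9.03 and 8.88 in testis and 8.49 and 8.55 in fibroblasts on the rhesus arrays, with 2.96 to 6.37 elsewhere. Of 12 metalloproteinase and inhibitor genes, MMP2 (gelatinase A), the inhibitor TIMP2 and the proteoglycan-cleaving ADAMTS5 were members. MMP2 read 11.07 and 11.19 in testis and 13.18 and 13.30 in fibroblasts on the rhesus arrays, against 2.64 and 3.72 in cortex, 8.07 and 8.04 in pancreas and 4.38 and 4.22 in thymus, which gave a gap of 3.07. TIMP2 had gaps of 1.72 and 1.84, with cortex as the highest other source on both array types.

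The insulin-like growth factor pathway had 4 members among 9 measured genes, all of them binding proteins. Beside IGFBP4, these were IGFBP2 with gaps of 2.13 and 1.67, IGFBP3 with 1.85 and 2.92, and IGFBP7 with 1.00 and 1.68. IGFBP7 read 11.69 and 11.63 in testis and 13.40 and 13.34 in fibroblasts on the rhesus arrays, against 10.58 and 10.73 in pancreas and 9.70 and 9.62 in thymus. Cortex was the lowest source for IGFBP7, at 7.79 and 7.73. The binding protein genes IGFBP5, with gaps of 0.64 and 2.28, and IGFBP6, with -0.11 and -0.42, were measured and were not members. Nor were the receptor genes IGF1R and IGF2R and the ligand gene IGF1.

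Of 17 genes of the TGF-beta and BMP pathway 5 were members. By role these were the ligand subunit gene INHBA, the latent binding protein gene LTBP1, the co-receptor gene ENG (endoglin), and CCN1 and CCN2, matrix-associated targets of the pathway. ENG read 8.44 and 8.38 in testis and 9.09 and 9.11 in fibroblasts on the rhesus arrays, against 4.23 and 3.76 in cortex, 7.2 and 6.96 in pancreas and 3.86 and 3.89 in thymus. Endoglin also marks endothelium, and the 8 endothelial markers averaged 4.99 in testis and 3.31 in fibroblasts on the rhesus arrays, against 6.03 in pancreas, which was the highest; their part in the ENG values was not tested. CCN2 had gaps of 1.46 and 1.49 and CCN1 of 2.19 and 1.06.

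Of 17 mesenchymal transcription factor genes, WT1 and YAP1 were members. WT1, a zinc finger factor of gonad and kidney development, read 11.10 and 11.16 in testis and 5.34 and 5.15 in fibroblasts on the rhesus arrays, with 2.89 to 3.41 elsewhere. The human WT1 probe set read 6.36 and 6.59 in testis and 5.24 and 5.25 in fibroblasts, with 3.36 to 4.09 elsewhere. A second WT1 probe set on each array type gave another picture, with 9.24 in testis and 2.85 in fibroblasts on the rhesus arrays and 8.85 in testis and 2.39 in fibroblasts on the human arrays. By these probe sets the fibroblast level of WT1 lay within the floor. With the probe sets averaged its gaps were 0.65 and 0.59, and WT1 was not kept. YAP1, the co-activator of the Hippo pathway, had gaps of 1.28 and 2.16. Among 14 adhesion and surface genes of mesenchyme, ENG and VIM were members, and VIM, the intermediate filament vimentin, had gaps of 1.31 and 1.69 with thymus as the highest other source.

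In all, 38 of the 123 members belonged to a list of mesenchymal or contractile roles, out of 171 listed genes measured, and 85 members belonged to none. None of the listed Leydig, Sertoli, germ cell, endothelial, neuronal, pancreas, thymocyte, leukocyte or cell division markers was a member. These lists are short, with 3 Leydig, 4 Sertoli and 6 germ cell genes measured. Other genes of these cell types were not searched for among the members. Leukocyte markers were higher in testis than in fibroblasts, with a mean of 8.10 in testis and 3.31 in fibroblasts on the rhesus arrays, against 5.15 in cortex, 6.26 in pancreas and 11.75 in thymus, and their part in the levels of the members was not tested.

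**Figure D4:**
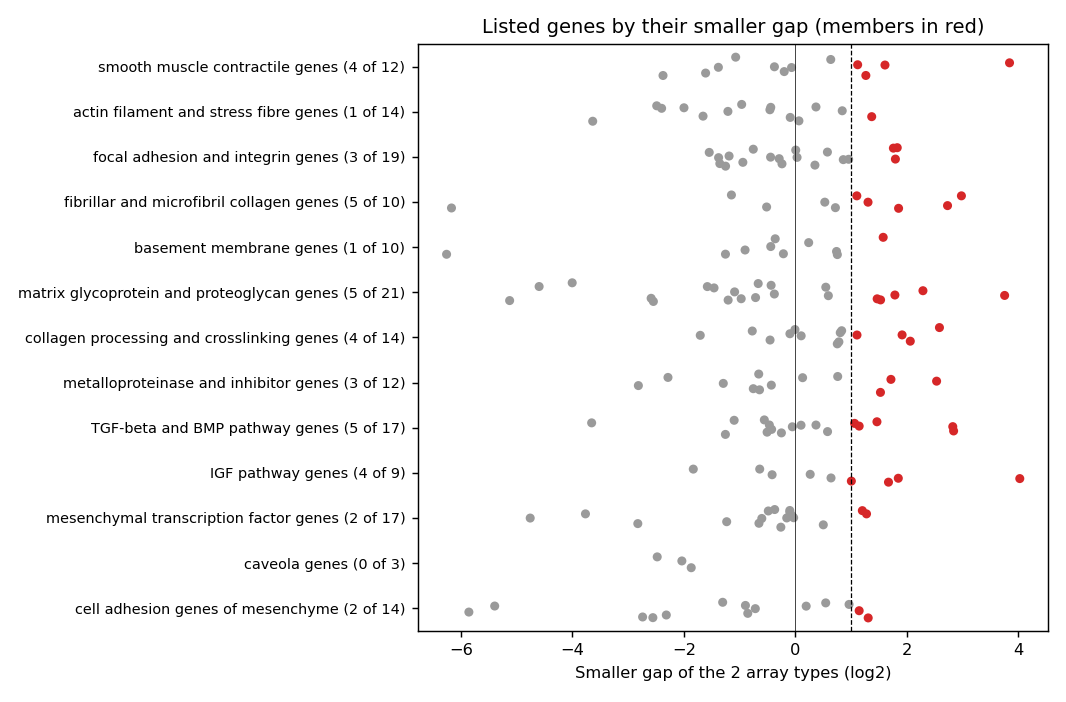
Smaller gap of both array types (x axis, log2) for each gene of the 13 role lists, 1 row a list, with members in red, the other genes in grey, a dashed line at a gap of 1, and the number of members and of measured genes beside each name. Collagens (5 of 10) and IGF pathway genes (4 of 9) hold the largest shares of members, and the caveola list holds none.

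Some members outside these lists belong to Wnt signalling and to the AXL axis, and they were chosen for mention after their values were seen. SFRP2, a secreted Wnt inhibitor like SFRP1, had gaps of 4.29 and 2.41, and the Wnt receptor gene FZD7 had gaps of 2.27 and 2.33. GAS6, the ligand of AXL, read 10.42 and 10.47 in testis and 10.33 and 10.42 in fibroblasts on the rhesus arrays, against 7.11 and 7.09 in cortex, 8.26 and 8.02 in pancreas and 3.95 and 3.97 in thymus. The gaps of GAS6 were 2.23 and 2.12. Another rhesus probe set of GAS6 read 3.90 in testis and 3.54 in fibroblasts, against 9.87 in cortex, and with the probe sets averaged the rhesus gap was -1.52, so that GAS6 was not kept.

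Pancreas most often set the highest level among the other sources. It did so for 80 members with rhesus arrays, 66 with human arrays and 58 with both, while cortex did so for 18 and thymus for 16 on both. Over all genes pancreas was the highest of these sources for 38.88% (rhesus) and 44.96% (human). The pancreas pair was also the least alike on the rhesus arrays, with a median difference of 0.22 between its arrays over the members and 5 members more than 1 apart. After quantile normalization 80 genes passed the rule, 78 of them among the 123, and of the 45 members that no longer passed 39 had pancreas as the highest other source on the rhesus arrays.

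The rule left sharp edges. FHOD1, a formin that regulates actin, passed with a smaller gap of 1.00, IGFBP7 with 1.00 and CLEC11A, a secreted lectin, with 1.01. On the human arrays CLEC11A read 3.74 and 2.65 in testis, the lower of them within the floor, and 2.12 to 2.22 in the other sources. With the probe sets averaged its gaps were 0.53 and 0.34, and CLEC11A was not kept. Nor was it kept by quantile normalization or with spiked controls subtracted. Just outside lay GPX7, a peroxidase of the endoplasmic reticulum, with gaps of 0.99 and 1.00, UTP4, a factor of ribosome assembly, with 0.98 and 1.03, and CLMP, an adhesion protein, with 0.98 and 1.08. On the rhesus arrays alone 109 further genes passed, and 46 of these had a human gap above 0. Another 62 passed on the human arrays alone, and 32 had a rhesus gap above 0. Applied to each of the 10 pairs of sources, the rule found 143 genes for testis and thymus, 123 for testis and fibroblasts, 119 for testis and cortex, 105 for fibroblasts and cortex, and between 14 and 97 for the other pairs. Testis and fibroblasts were thus not the pair with the most shared genes.

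Other probe sets of the same genes gave a further reading of the same RNA. On the rhesus arrays 74 members had 143 other probe sets, and 59 of these (41.26%) had a gap of at least 1, against 1.62% of all such probe sets. For the human arrays, 82 members had 195, and 48 (24.62%) had such a gap, against 0.634%. Testis or fibroblasts, and not always both, lay at the floor in 44 rhesus and 85 human probe sets of members. A gap of -1 or lower, against the rule, was found in 13 other rhesus probe sets of 8 members and in 2 human ones of 2 members, and some of these were bright. The rhesus ones included, named after their values were seen, 2 probe sets of TCEAL9 with gaps of -11.35 and -6.15, 2 of TPM2 with -7.64 and -7.30, 1 of GAS6 with -6.33, 1 of PLXNB2 with -5.84 and 3 of HSPA4 with -1.94, -1.69 and -1.52. The brighter of these for TCEAL9 read 12.36 in testis and 2.63 in fibroblasts, against 13.98 in cortex. DAB2 had 4 other rhesus probe sets with gaps of 2.77, 2.65, 0.49 and 3.58, 3 of which passed, but with its human probe sets averaged the gap of DAB2 was 0.97 and it was not kept. When the probe sets of each gene were averaged, 75 genes passed, 71 of them among the 123. Members of the role lists not kept then included TPM2, ITGB5, COL6A1, COL12A1, FBN2, FSTL1, LOXL2, P4HA2 and MMP2. ADAMTS5, ENG, CCN1, CCN2, IGFBP7, WT1, YAP1 and VIM were not kept either.

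The rule fixes how far the lower of testis and fibroblasts stands above the rest but not how these sources differ from each other. That difference, testis minus fibroblasts, was tested with limma over all probe sets, and calls needed sources at least 1 log2 unit apart with a p, adjusted by Benjamini-Hochberg, under 0.05. Most members that differed were lower in testis. On the rhesus arrays 7 members were called higher in testis and 59 lower, and 57 were not called. Of all genes 18.4% were called higher and 17.1% lower there, or 26.1% and 26.4% of those with a testis or fibroblast mean of at least 5. On the human arrays 6 members were called higher and 64 lower, with backgrounds of 11.7% and 12.4%, or 20.3% and 23.5% for the brighter genes. On both array types 6 members were called higher and 56 lower, against 9.13% and 9.93% of all genes, and 49 members were called on neither. Of genes with a testis or fibroblast mean of at least 5 on each array type, 17.2% were called higher and 20.6% lower on both. No member was called in opposite directions. The median difference of the members was -0.87 (rhesus) and -1.10 (human), against -0.09 and -0.04 over all genes, and the fibroblast mean was the higher one in 96 and 97 of the 123 members.

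**Figure D5:**
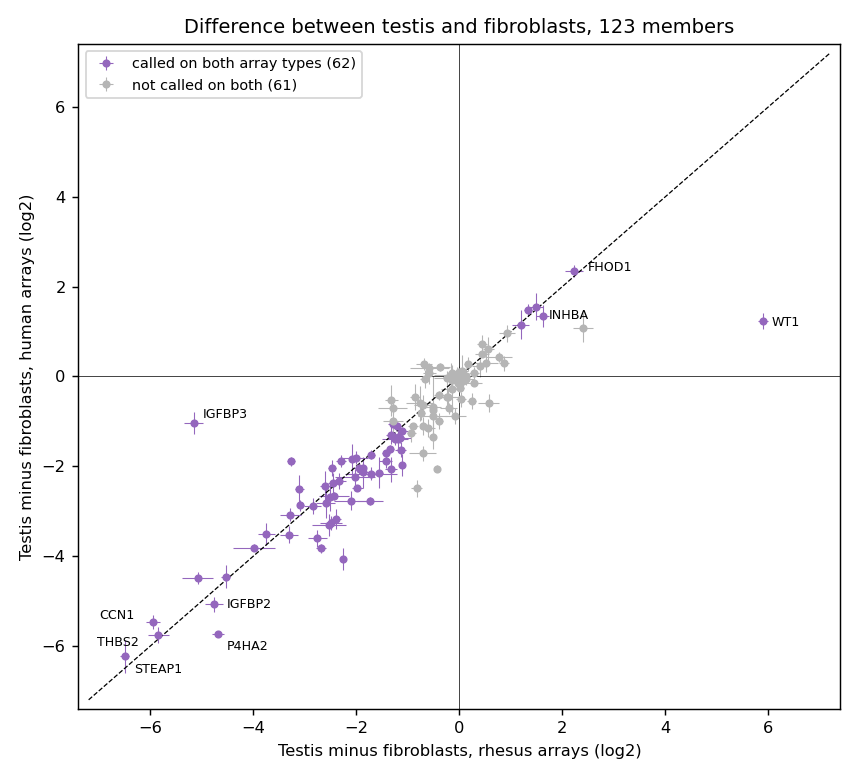
Testis minus fibroblasts for rhesus arrays (x axis, log2) against human arrays (y axis, log2) for the 123 members, with bars of 1 standard error and a dashed line of equality. Of the members, 62 were called on both array types (purple), most of them in the lower left where testis is lower, and WT1 and IGFBP3 lie far from the line.

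The members lowest in testis relative to fibroblasts were surface, matrix and secreted genes, and the standard error follows each difference in parentheses. STEAP1, a membrane protein of the metalloreductase family, read 5.49 and 5.43 in testis and 11.92 and 11.99 in fibroblasts on the rhesus arrays, against 2.65 to 3.18 elsewhere. It fell by 6.50 on the log2 scale (standard error 0.09, adjusted p = 5.194e-08 from limma) and by 6.23 (0.37) on the human arrays. On the human arrays STEAP1 read 5.49 and 4.32 in testis, so these arrays were apart, and 11.09 and 11.18 in fibroblasts. The other sources read 2.76 to 3.15 there. STEAP1 thus read far lower in testis than in fibroblasts and above the rest, which lay near the floor. THBS2 read 6.28 and 5.75 in testis and 11.81 and 11.92 in fibroblasts, a difference of -5.85 (0.21) with rhesus and -5.76 (0.18) with human arrays. CCN1 differed by -5.94 (0.14) and -5.47 (0.16), and IGFBP2 by -4.77 (0.18) and -5.07 (0.16). P4HA2 differed by -4.69 (0.12) and -5.72 (0.05). All of these calls held on both array types.

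The 6 members called higher in testis on both array types were FHOD1, INHBA, DENND2B, IFI44, WT1 and, named after its values were seen, TSPAN6. FHOD1 read 9.97 and 9.94 in testis and 7.84 and 7.63 in fibroblasts on the rhesus arrays, against 3.84 to 6.89 elsewhere, a difference of 2.22 (0.17), and 2.35 (0.14) on the human arrays. INHBA read 9.51 and 9.45 in testis and 8.0 and 7.99 in fibroblasts on the rhesus arrays, and 9.12 and 9.16 against 7.63 and 7.54 on the human arrays. Its differences were 1.48 (0.14, adjusted p = 0.0002054 from limma) and 1.55 (0.31, adjusted p = 0.01394), but on the human arrays the call ended without fibroblast replicate 4 (adjusted p = 0.069), testis replicate 3 (0.0585) or testis replicate 4 (0.0668). Activin is made by Sertoli cells of the testis, and the 4 Sertoli cell markers were all called higher in testis on both array types; their part in the INHBA level was not tested. DENND2B, an activator of Rab proteins, differed by 1.61 (0.12) and 1.34 (0.25), and IFI44, which interferon induces, by 1.32 (0.08) and 1.48 (0.13). With the spiked controls subtracted, the differences of INHBA and IFI44 on both array types and of DENND2B and WT1 on the human arrays were below 1 and the calls ended. The calls of TSPAN6 ended too, which left 4 members (rhesus) and 1 member (human) called higher in testis. With the probe sets averaged, IFI44 differed by 0.79 and 0.73 and INHBA by 0.81 on the human arrays, and these were not called. In a fit of the testis and fibroblast arrays alone the human call of DENND2B ended (adjusted p = 0.0899 from limma).

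The members with the smallest difference between testis and fibroblasts came from other functions. TMEM216, a protein at the base of the primary cilium, read 8.48 and 8.49 in testis and 8.41 and 8.51 in fibroblasts on the rhesus arrays, against 5.79 to 6.89 elsewhere, a difference of 0.02 (0.17). The zinc finger gene ZNF697, the arrestin domain gene ARRDC3, the filamin-binding FILIP1L and the ribosome assembly gene DCAF13 followed, and the largest of their differences was -0.10 (0.11), for DCAF13 on the human arrays. With 2 arrays per source the standard errors of these differences ran up to 0.27 (ZNF697, rhesus arrays), so small differences could not be detected.

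By list, genes called on both array types were mostly lower in testis, for matrix and IGF genes and also for focal adhesion, stress fibre and mesenchymal adhesion genes. The transcription factor, basement membrane and TGF-beta and BMP pathway lists were more divided. All 5 collagen members, all 5 matrix glycoprotein members, all 4 collagen processing members and all 4 IGF pathway members were called lower in testis on both array types. Over whole lists, 12 of 14 collagen processing genes, 13 of 21 matrix glycoprotein genes, 9 of 12 metalloproteinase and inhibitor genes and 6 of 9 IGF pathway genes were lower in testis on both, and 0, 1, 1 and 1 were higher, where 9.93% of all genes were lower and 9.13% higher. Of genes with a testis or fibroblast mean of at least 5 on each array type, 20.6% were lower and 17.2% higher. Of 17 TGF-beta and BMP pathway genes 3 were higher and 6 lower, of 17 transcription factor genes 5 were higher and 5 lower, and of 10 basement membrane genes 2 were higher and 1 lower. The contractile list had 2 higher and 6 lower, collagens 1 and 6, mesenchymal adhesion genes 1 and 8, focal adhesion genes 0 and 9, stress fibre genes 0 and 6, and caveola genes 0 and 1. The medians of testis minus fibroblasts were -3.15 and -3.55 for collagen processing and -2.46 and -2.04 for matrix glycoprotein genes. Among the contractile members, CALD1 differed by -1.88 (0.04) and -2.05 (0.12) and TPM2 by -2.60 (0.18) and -2.82 (0.34), both called on both array types. CNN1 was called lower by rhesus arrays alone and MYL9 by human arrays alone. Focal adhesion members ITGB5, ZYX and TGFB1I1 were all called lower on both. With the probe sets of a gene averaged, the calls of ITGB5 ended on both array types (-0.39 and -0.47), as did those of DCN (-0.66 and -0.71), and those of COL6A1 (-0.79), CALD1 (-0.77) and MYL9 (-0.96) ended for human arrays and that of IGFBP7 (-0.49) for rhesus arrays. Quantile normalization ended the human calls of DCN (-0.97) and IGFBP3 (-0.93) and the rhesus call of COL6A1 (-0.85). The human call of ZYX ended without fibroblast replicate 4 (adjusted p = 0.0753 from limma) or testis replicate 3 (0.0712). That of IGFBP3 ended without any of fibroblast replicates 3 (0.0969) and 4 (0.0611) and testis replicates 3 (0.0885) and 4 (0.0988). LAMB2, LTBP1, TIMP2, ADAMTS5, ENG and YAP1 were called on neither array type, and the differences of LTBP1 were -0.14 (0.21) and -0.27 (0.53).

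Testis minus fibroblasts was also compared between the array types in a limma fit of all 20 arrays. It differed by at least 1 at an adjusted p below 0.05 in 12 members, while 18.1% of all genes were called. Of these 12, 11 had the same sign on both array types, and the difference was larger in size in 4 members with rhesus arrays and in 8 with human arrays. WT1 differed most, with 5.89 (0.10) with rhesus and 1.23 (0.17) with human arrays. The second WT1 probe sets, by contrast, differed by 6.39 (rhesus) and 6.47 (human), so that the large value for WT1 holds for the brightest probe sets. IGFBP3 read 7.82 and 7.80 in testis and 12.91 and 13.03 in fibroblasts on the rhesus arrays, but 8.02 and 8.0 in testis and 9.18 and 8.93 in fibroblasts on the human arrays. The testis levels of IGFBP3 were thus close and the fibroblast levels far apart. A second human probe set of IGFBP3 read 2.90 in testis and 5.67 in fibroblasts. VIM differed by -0.43 (0.06) with rhesus and -2.06 (0.07) with human arrays, but 2 other rhesus probe sets of VIM, with 12.70 in testis and 14.45 in fibroblasts and with 12.87 and 14.90, were nearer to the human value.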

How the data were processed

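Gene expression was measured in 5 rhesus macaque RNA sources on 10 rhesus and 10 human arrays, with technical duplicates throughout. For each array type the authors deposited a table of log2 values, with a value for every probe set on every array, and the submitters' processing notes name RMA, which combines the probes of a probe set; its version is not given in the sources used here, nor is the grouping of arrays in that step. The study itself worked with intensities of single probes, which were not analysed here. RMA pulls low values together, so differences of dim genes are compressed, and human probes can mismatch rhesus RNA.

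The sample labels gave the source of each array, and 0 columns of values were left out. Genes were read from probe sets paired with exactly 1 symbol, which held for 24956 of 52865 rhesus and 41091 of 54675 human probe sets; 24616 of the rhesus ones were matched by gene number to a RefSeq gene table, and 0 symbols differed. The gene order in RefSeq was used for neighbours only. Differences came from limma 3.58.1 (lmFit and eBayes, R 4.3.3) in 1 fit per array type, which took in its 10 arrays and, control probe sets aside, 52766 rhesus or 54613 human probe sets and Benjamini-Hochberg adjustment. The array types were compared in a limma fit of 20 arrays at the gene level, adjusted over 11956 genes. Calls needed an adjusted p under 0.05 and sources at least 1 log2 unit apart. Figures were drawn with Python 3.11.15 and matplotlib 3.10.9. The number of arrays limits precision.

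The fit was tried on simulated data with the real spreads and source means, but with testis set equal to fibroblasts except in the changed probe sets. For the rhesus arrays 80 of 100 probe sets changed by 1.5 and 95 of 100 changed by 3 were recovered, with 2 false calls among 52766 tested. On the human arrays these were 82, 94 and 0 among 54613. In the real rhesus data far more probe sets were called, 7940 higher and 5456 lower in testis. The simulated rates therefore do not measure recovery or false calls in the reported fit.

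The members, the gene lists and the tests were chosen with earlier results of these data known. Genes were named by rule: the 15 members with the widest smaller gap, members of the lists, the 5 members with the largest difference between testis and fibroblasts in each direction called on both array types, the 5 with the smallest, the 3 genes on each side of the threshold, and the 6 contractile and matrix genes that missed the rule most because 1 source was low; members whose difference was called in opposite directions would also have been named. The rest of a short list is named where the whole list is described. Alternatives were other scalings, other readings of a gene from its probe sets, other thresholds, a filter on dim probe sets, other fits and each array left out in turn.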

Additional observations from a re-analysis of the deposited data

Results flagged for a closer look

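Testis minus fibroblasts differed between the array types in 12 members, which set them apart for a closer look. Each value below is the difference on the rhesus arrays minus that on the human arrays, on the log2 scale, from a limma fit of all 20 arrays. The difference was positive in 10 members, at 4.656 for WT1, 1.796 for the collagen isomerase FKBP10, 1.658 for SFRP2, 1.621 for VIM, 1.315 for the zinc finger gene OSR2, 1.159 for YAP1, 1.132 for FSTL1, 1.04 for the carboxypeptidase family member CPXM1, 1.036 for P4HA2 and 1.004 for MYL9. It was negative in 2, at -4.117 for IGFBP3 and -1.375 for LMNA, which encodes the nuclear lamins A and C. Adjusted p-values from limma ran from 2.476e-09 for WT1 to 0.03209 for MYL9. The other WT1 probe sets gave 6.39 (rhesus) and 6.47 (human) for testis minus fibroblasts.

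Several of these calls rested on single arrays or on the scaling. That of MYL9 ended without any of 6 of the 8 testis and fibroblast arrays (rhesus fibroblast replicate 1 and testis replicates 1 and 2, human fibroblast replicates 3 and 4 and testis replicate 3; adjusted p = 0.0574 to 0.108 from limma), and its value was 0.93 with array medians and 0.9986 with spiked controls subtracted, both under 1, and 0.25 with probe sets averaged. That of OSR2 ended without fibroblast replicate 2 or 4 or testis replicate 2 or 4, that of CPXM1 without fibroblast replicate 1 or 3 or testis replicate 1 or 3, that of P4HA2 without fibroblast replicate 1 or testis replicate 2 or 4, and that of YAP1 without fibroblast replicate 2 or 3. Quantile normalization ended those of P4HA2 (0.94), FSTL1 (0.98), CPXM1 (0.94) and YAP1 (0.72), and array medians those of P4HA2 (0.96) and CPXM1 (0.96). With probe sets averaged, the calls of SFRP2 (0.83) and LMNA (-0.29) also ended.

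YAP1 was the member whose sign differed, with 6.96 and 6.91 in testis and 6.69 and 6.04 in fibroblasts on the rhesus arrays, and 9.97 and 10.13 in testis and 10.82 and 10.47 in fibroblasts on the human arrays. FKBP10 read 7.54 and 7.62 in testis and 9.90 and 9.79 in fibroblasts on the rhesus arrays, and 4.42 and 4.80 in testis and 8.67 and 8.68 in fibroblasts on the human arrays. The testis level of FKBP10 on the human arrays was thus the one nearest the other sources, which read 2.71 to 3.55 there. SFRP2 read 9.38 and 9.21 in testis and 10.12 and 10.14 in fibroblasts on the rhesus arrays, and 6.69 and 6.82 in testis and 9.23 and 9.26 in fibroblasts on the human arrays. In a second human probe set of SFRP2 the testis mean was 6.76 and the fibroblast mean 7.60. OSR2, SFRP2, CPXM1 and LMNA are named here because they were called, after their values were seen.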

How the results depend on the processing

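The number of members was 80 after quantile normalization (78 of the 123 among them), 75 when the probe sets of a gene were averaged (71 of the 123), 229 at a threshold of 0.5 and 31 at a threshold of 2. Quantile normalization changed the level of the members by a median of 0.503 in pancreas (rhesus) and 0.348 (human), and pancreas was the highest other source on the rhesus arrays for 39 of the 45 members that no longer passed. With array medians or spiked controls subtracted there were 138 and 168 members, with 123 and 113 of the 123. All 15 leading members passed under these scalings, and 13 did with the mean of all probe sets, the exceptions being KIRREL1 and DAB2. Only 48 of the 123 members passed under all 4 of these settings (quantile, medians, spiked controls and averaged probe sets). Members of the role lists not kept by quantile normalization were CALD1, PALLD, LAMB2, COL12A1, THBS2, FSTL1, FKBP10, ENG, CCN1, CCN2, IGFBP7 and YAP1. Leaving out single arrays gave 117 to 126 members. Members called higher in testis numbered 14 on the rhesus arrays with no minimum difference, and 4 (rhesus) and 1 (human) with spiked controls subtracted, which moves the median of testis minus fibroblasts over all genes to -0.69 (rhesus) and -0.638 (human). Without single arrays they numbered 7 to 8 (rhesus) and 4 to 6 (human), those called lower 58 to 59 and 59 to 64, and those that differed between array types 10 to 14. The last of these was 22 with no minimum difference. With the mean of all probe sets, the difference between array types turned round for P4HA2 (-1.917), FSTL1 (-0.6949), VIM (-0.4388) and YAP1 (-0.1449); the cause was not tested.

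The replicate number as a block changed no call, with 7 higher and 59 lower for rhesus arrays, 6 and 64 for human arrays and 12 between array types. Arrays that share a number did not deviate together (correlation of -0.025 to 0.010 for rhesus and -0.034 to 0.018 for human arrays), so the numbers do not pair them. Of the values of testis minus fibroblasts of named members under alternatives, 2073 kept direction and side of the threshold, 32 were no longer called, 22 were newly called and none turned round. Many of these alternatives, such as leaving out a cortex, pancreas or thymus array, cannot change the testis and fibroblast means. The tally is therefore no measure of robustness.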
